A study of Homo sapiens with 6 samples.

Results

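RNA sensing genes were followed in Caki-1 cells with and without VHL. The 10 members were taken by name from the receptors, adaptors and effectors that detect double-stranded RNA (IFIH1, DHX58, MAVS, TLR3, TICAM1, EIF2AK2, TRAF3, TRIM25, IKBKE and ADAR), and each matched 1 of the 60708 genes in the count table. Tests covered the 17401 genes that reached 10 reads in some library, all 10 members among them.

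Caki-1 is an established human clear cell kidney carcinoma line that carries wild-type VHL. In the VHL-KO group, a lentivirus had delivered Cas9 with a guide RNA against VHL, and clones were picked after puromycin and screened by immunoblot. The VC group was the vector control of the study, and how its cells were made is not stated for these libraries. RNA-seq covered 3 libraries of each group, with no other treatment, and the total counts per library ran from 22628246 to 34881739. VHL-KO was clonal, so differences between clones cannot be told apart from the loss of VHL, and nothing states that the 3 libraries of a group came from separate cultures. The p-values therefore measure the spread between these libraries, which may be technical.

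Cells detect double-stranded RNA, a mark of viral replication, through receptors in separate compartments. In the cytosol, RIG-I-like receptors signal through MAVS on mitochondria, and in endosomes TLR3 signals through TICAM1; both routes meet at the kinases TBK1 and IKBKE, which activate interferon regulatory factors. Interferon in turn raises the transcription of many of the sensors, while ADAR edits and thereby masks the cell's own double-stranded RNA.

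VHL itself, the targeted gene, had 42.6, 37.8 and 40.1 counts per 1000000 reads (CPM, scaled by the trimmed mean of M-values, TMM) in VC 1 to 3, and 34.8, 30.4 and 30.5 in VHL-KO 1 to 3. The VHL-KO libraries lay under all VC libraries, but VHL RNA was still present in each of them. VHL fell by 0.33 ± 0.11 (SE) on the log2 scale, with an adjusted p of 0.0109 by the quasi-likelihood test of edgeR, adjusted by Benjamini-Hochberg over all tested genes. With offsets for GC content and transcript length VHL fell by 0.03 and the adjusted p was 0.783, in a range of 0.000293 to 0.783 over 15 alternatives. With upper quartile factors the adjusted p was 0.0905, without VC 1 it was 0.0862, and without VHL-KO 2 it was 0.0621. The log2 fold change of VHL ran from -0.391 to -0.282 when single libraries were left out. An edited gene can still be transcribed, and 23.5% of the VHL exon bases are also exonic on the opposite strand, so that this level alone does not separate the groups' genotypes. Of 10 genes known as targets of the hypoxia-inducible factors, which VHL marks for degradation, 9 were called higher and 1 lower. The shares of all tested genes were 28.5% and 31.2%. NDRG1 had 11.1 to 12.1 CPM in VC and 729 to 781 in VHL-KO. CA9, a carbonic anhydrase with 35.7% of its exon bases also exonic on the opposite strand, had 0 to 0.0527 CPM in VC and 10.8 to 11.4 in VHL-KO. EGLN3, an oxygen-dependent prolyl hydroxylase, was the gene that fell, by 1.26 ± 0.35 (SE). Its level was low, at 1.38 to 2.02 CPM in VC and 0.374 to 0.927 in VHL-KO.

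The label of a kidney epithelial line was compared with marker genes. Of 9 kidney epithelial markers, 8 were tested, with 5 called higher and 2 lower, beside 28.5% and 31.2% of all tested genes. The GC and length offsets gave 2 higher and 3 lower, beside 29.3% and 30.9%. Nothing particular to these 8 genes can be read from the counts. PAX2 was at 0 in every library. KRT8, the most abundant, had 597 to 766 CPM in VC and 943 to 967 in VHL-KO; its log2 fold change of 0.51 was 0.08 with the offsets and did not pass the test there (edgeR, adjusted p = 0.132, in a range of 7.90e-10 to 0.132). PAX8, with 22.4% of its exon bases also exonic on the opposite strand, had 384 to 459 CPM in VC and 601 to 629 in VHL-KO and was called higher, also with the offsets (log2 fold changes of 0.52 and 0.43), and CDH16, a cadherin of kidney tubules, rose from 6.01 to 7.88 CPM in VC to 70.7 to 74.2 in VHL-KO. LHX1, a transcription factor of the developing kidney, fell by 1.67 ± 0.11 (SE) on the log2 scale, and EPCAM, an epithelial adhesion molecule, fell by 1.42 ± 0.41 (SE) at levels of at most 1.64 CPM. Blood cell markers summed to 1.55 to 2.42 CPM in VC and 3.89 to 5.56 in VHL-KO. CD14 was the most abundant at 1.29 to 1.70 in VC and 3.56 to 5.24 in VHL-KO, and was called higher. ITGAM, the other marker tested, had means of 0.372 CPM in VC and 0.215 in VHL-KO, and did not pass the test. CD3E and HBB were at 0 in every library. Endothelial markers summed to 0.168 to 0.237 CPM in VC and 0.324 to 0.711 in VHL-KO. PECAM1, the most abundant over all libraries, had 0 to 0.168 CPM in VC and 0.324 to 0.524 in VHL-KO. It was called higher (edgeR, adjusted p = 0.0117), but not without VC 3 (adjusted p = 0.0648, in a range of 0.00214 to 0.0648). KDR went the other way, with 0 to 0.237 CPM in VC and 0 in every VHL-KO library, and exceeded PECAM1 in VC 1 and VC 3. Fibroblast markers summed to 37.2 to 47.3 CPM in VC and 25.5 to 29.8 in VHL-KO. COL1A1 was the most abundant at 29.4 to 36.5 in VC and 22.9 to 27.7 in VHL-KO, and was called lower. PDGFRB, at 7.72 to 10.7 CPM in VC and 2.06 to 2.58 in VHL-KO, was also called lower (log2 fold change -1.94). LUM was at 0 in every library, and COL1A2 and DCN had at most 0.0749. The part of these markers in the results was not tested.

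Of the 10 RNA sensing genes, 1 was called higher in VHL-KO, against 28.5% of all tested genes, and 5 were called lower, against 31.2%. DHX58 rose, while IFIH1, EIF2AK2, TRAF3, TRIM25 and ADAR fell; MAVS, TLR3, TICAM1 and IKBKE did not pass the test. The median log2 fold change of the members was -0.28, beside -0.01 over all tested genes. All VHL-KO libraries lay above all VC libraries for 1 member, against 31.2% of tested genes, and under them for 5, against 33.5%. Most of the tested genes moved in this comparison, and with 10 genes nothing particular to the members can be read from these counts. In bulk RNA, fewer cells with a transcript and fewer copies per cell cannot be told apart. Summed over the members, the level was 740, 792 and 762 CPM in VC 1 to 3 and 593, 607 and 631 in VHL-KO 1 to 3. The sum follows its most abundant members, among them ADAR at 134 to 233 CPM over all libraries. It says little of low members such as IFIH1.

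**Figure D1:**
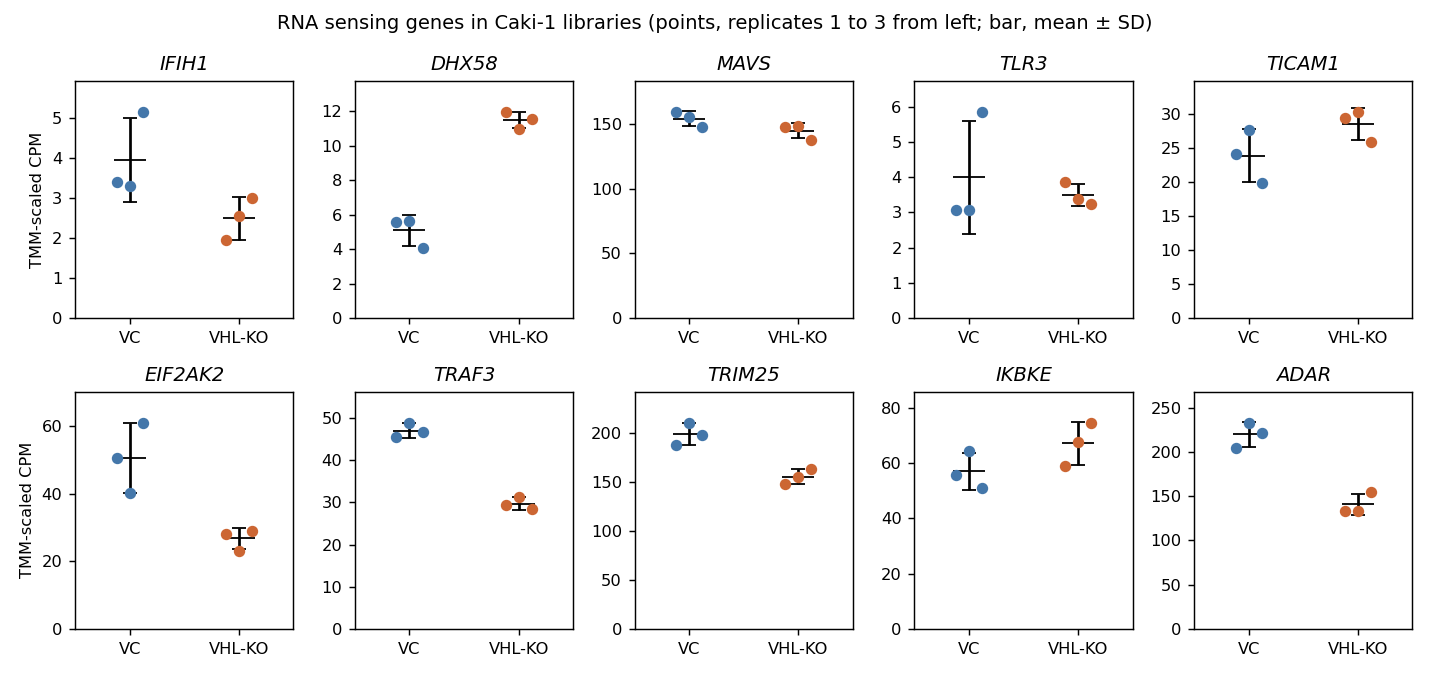
TMM-scaled CPM of the 10 RNA sensing genes in each of 3 VC and 3 VHL-KO libraries of Caki-1 cells, on linear axes that start at 0; points are libraries and bars the mean with the SD. DHX58 sits at 10.98 to 11.9 in VHL-KO above 4.06 to 5.65 in VC, while ADAR, TRIM25, TRAF3, EIF2AK2 and IFIH1 sit lower in VHL-KO.

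Promoters came from a table of RefSeq windows (GRCh38.p14), 250 bases before to 50 after each start, in which 9 of the 10 members were matched with 11 windows; the window of DHX58 was not analysed here. The windows were searched on both strands for GAAANNGAA, the core of the interferon-stimulated response element (ISRE). This core lies in 8.11% of all 35116 windows and in those of IFIH1, TLR3 and EIF2AK2. These 3 are shown because they are the members whose window holds the letters; they lie at chr2:162318635-162318934 (minus strand), chr4:186068906-186069205 (plus strand) and chr2:37156931-37157230 (minus strand), each written 5′ to 3′ along its gene with the ISRE cores of either strand in capitals.
IFIH1: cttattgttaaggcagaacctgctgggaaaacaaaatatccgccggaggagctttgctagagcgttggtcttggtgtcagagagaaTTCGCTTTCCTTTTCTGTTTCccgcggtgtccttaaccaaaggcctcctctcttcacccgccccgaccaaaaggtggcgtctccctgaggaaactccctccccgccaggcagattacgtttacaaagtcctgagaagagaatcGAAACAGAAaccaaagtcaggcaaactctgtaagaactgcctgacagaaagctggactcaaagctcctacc
TLR3: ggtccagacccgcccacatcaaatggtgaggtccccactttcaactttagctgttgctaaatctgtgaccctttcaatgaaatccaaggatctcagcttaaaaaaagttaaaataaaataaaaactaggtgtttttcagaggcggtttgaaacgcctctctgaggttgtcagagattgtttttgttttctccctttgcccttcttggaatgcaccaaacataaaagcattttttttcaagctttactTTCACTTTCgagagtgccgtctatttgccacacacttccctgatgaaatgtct
EIF2AK2: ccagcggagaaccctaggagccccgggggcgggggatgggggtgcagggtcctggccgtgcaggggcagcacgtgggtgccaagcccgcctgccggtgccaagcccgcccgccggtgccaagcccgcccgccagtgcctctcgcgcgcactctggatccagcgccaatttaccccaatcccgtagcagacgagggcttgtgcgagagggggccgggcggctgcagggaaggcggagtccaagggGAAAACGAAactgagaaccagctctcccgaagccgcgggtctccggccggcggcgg
The IFIH1 window holds 4 cores, of which 3 lie on the opposite strand between positions -164 and -144 from the start, each overlapping its neighbour. The TLR3 and EIF2AK2 windows hold 1 each, across the RefSeq start itself. These RefSeq starts differ from the ends of the gene coordinates given below. The EIF2AK2 window lies wholly inside its gene, and the TLR3 window lies inside its gene except for its first bases. TTCNNNGAA, the gamma-activated site, lies in 7.66% of all windows and, among the members, in that of TLR3, at -178 and -50. ACGTG or GCGTG, the cores of the hypoxia response element, lie in 48.4% of all windows and in windows of 6 members, MAVS, TICAM1, EIF2AK2, TRAF3, TRIM25 and ADAR. IFIH1 and EIF2AK2, with an ISRE core, were called lower and TLR3 was not called. A match of letters is a description of the window and not a site of binding.

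IFIH1 (MDA5, chr2:162267074-162318684, minus strand) binds long double-stranded RNA in the cytosol. Its level was 3.40, 3.30 and 5.16 CPM in VC 1 to 3 and 1.95, 2.55 and 3.00 in VHL-KO 1 to 3. VC 3 was the high library, and the groups did not overlap, with 3.00 in VHL-KO 3 close to 3.30 in VC 2. IFIH1 fell by 0.68 ± 0.23 (SE) on the log2 scale (edgeR, adjusted p = 0.0158). The call was lost in 4 of 15 alternatives. Without VC 3 it fell by 0.41 (edgeR, adjusted p = 0.172), without VHL-KO 1 by 0.51 (adjusted p = 0.0969), and with GC and length offsets by 0.26 (adjusted p = 0.293), in a range of 0.00457 to 0.293 over 15 alternatives.

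DHX58 (LGP2, chr17:42101404-42112714, minus strand) is the RIG-I-like receptor without signalling domains and modulates the other receptors. Its level was 5.56, 5.65 and 4.06 CPM in VC 1 to 3 and 11.9, 10.98 and 11.5 in VHL-KO 1 to 3. Every VHL-KO library was above every VC library, and VC 3, the highest VC library for IFIH1, was the lowest for DHX58. DHX58 rose 2.26-fold, or 1.18 ± 0.17 (SE) on the log2 scale (edgeR, adjusted p = 1.53e-06). It was called higher under all 15 alternatives, with log2 fold changes of 0.92 to 1.29. The ratio of DHX58 to IFIH1 reads per exonic base, which needs no scaling factor between libraries but carries any trend with GC content, was 2.24, 2.34 and 1.07 in VC and 8.38, 5.89 and 5.25 in VHL-KO. The ratio was higher in each VHL-KO library than in any VC library. The log2 fold change of DHX58 exceeded that of IFIH1 by 1.85 with TMM and by 1.18 with GC and length offsets.

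MAVS (chr20:3846799-3876123, plus strand) is the mitochondrial adaptor through which IFIH1 and RIG-I signal. Its level was 159, 155 and 148 CPM in VC 1 to 3 and 148, 148 and 138 in VHL-KO 1 to 3. The groups overlapped, and VHL-KO 3 was the lowest library. The log2 fold change was -0.09 ± 0.09 (SE) and did not pass the test (edgeR, adjusted p = 0.386). It was 0.02 with upper quartile factors and -0.28, past the test, with library size alone (edgeR, adjusted p = 0.00469), in a range of 0.00469 to 0.863.

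TLR3 (chr4:186068911-186088073, plus strand) binds double-stranded RNA in endosomes. Its level was 3.08, 3.06 and 5.85 CPM in VC 1 to 3 and 3.86, 3.38 and 3.24 in VHL-KO 1 to 3. VC 3 stood above the other 5 libraries, and without it VC lay under VHL-KO. The log2 fold change of -0.20 ± 0.24 (SE) did not pass the test (edgeR, adjusted p = 0.483). It was 0.21 without VC 3 and 0.42 with GC and length offsets, where it did not pass either (edgeR, adjusted p = 0.0686, in a range of 0.0539 to 0.780), so that no direction can be given for TLR3.

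TICAM1 (TRIF, chr19:4815932-4831712, minus strand) is the adaptor that TLR3 needs. Its level was 24.05, 27.7 and 19.9 CPM in VC 1 to 3 and 29.4, 30.3 and 25.8 in VHL-KO 1 to 3. VC 3 was the lowest library, and VC 2 lay above VHL-KO 3, so the groups overlapped. The log2 fold change was 0.26 ± 0.13 (SE; edgeR, adjusted p = 0.0839). It passed the test with upper quartile factors (0.37), where a gene needed 10 reads in each library (0.29) and without VC 2, at 0.40 (edgeR, adjusted p = 0.00541), and turned to -0.13 with GC and length offsets (adjusted p = 0.199), in a range of 0.00541 to 0.661.

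TRAF3 (chr14:102777449-102911500, plus strand) is a ubiquitin ligase that couples both adaptors to the kinases. Its level was 45.5, 48.9 and 46.7 CPM in VC 1 to 3 and 29.4, 31.3 and 28.5 in VHL-KO 1 to 3. The groups were far apart and the libraries within each close together. TRAF3 fell by 0.66 ± 0.10 (SE) on the log2 scale (edgeR, adjusted p = 6.81e-06), and by 0.69 with GC and length offsets, the member whose fall those offsets made no smaller.

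IKBKE (chr1:206470476-206496889, plus strand), the kinase that with TBK1 phosphorylates IRF3 and IRF7, had 55.8, 64.4 and 51.2 CPM in VC 1 to 3 and 59.1, 67.6 and 74.7 in VHL-KO 1 to 3. VC 2 lay above VHL-KO 1, so the groups overlapped. The log2 fold change was 0.23 ± 0.11 (SE; edgeR, adjusted p = 0.0670). It passed the test with relative log expression factors (0.26), with upper quartile factors (0.34), where a gene needed 10 reads in each library (0.27) and without VC 2, at 0.35 (adjusted p = 0.00255), and without VHL-KO 1, at 0.33 (adjusted p = 0.0299), but was 0.04 with GC and length offsets (edgeR, adjusted p = 0.675), in a range of 0.00255 to 0.738. Of its exon bases, 4.12% are also exonic on the opposite strand.

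TRIM25 (chr17:56836387-56914080, minus strand), a ubiquitin ligase of RIG-I signalling, had 188, 210 and 198 CPM in VC 1 to 3 and 148, 155 and 163 in VHL-KO 1 to 3. All VHL-KO libraries lay under all VC libraries. It fell by 0.36 ± 0.09 (SE) on the log2 scale (edgeR, adjusted p = 0.00130), and by 0.23 with GC and length offsets (edgeR, adjusted p = 0.000925, in a range of 1.00e-05 to 0.0288). Other genes share 1.76% of its exon bases on the same strand and 4.98% on the opposite strand.

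EIF2AK2 (PKR, chr2:37099210-37157522, minus strand) halts translation when it binds double-stranded RNA. Its level was 50.6, 40.4 and 61.1 CPM in VC 1 to 3 and 28.1, 23.2 and 29.1 in VHL-KO 1 to 3. VC 3 was again the highest and VC 2 the lowest VC library, yet each VC library stood above each VHL-KO library. EIF2AK2 fell by 0.92 ± 0.13 (SE) on the log2 scale (edgeR, adjusted p = 1.65e-06). With GC and length offsets it fell by 0.38, still past the test (edgeR, adjusted p = 0.000618, in a range of 1.54e-15 to 0.000618), and 3.95% of its exon bases are also exonic on the opposite strand.

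ADAR (chr1:154581695-154628013, minus strand), which deaminates adenosine in double-stranded RNA, had 205, 233 and 222 CPM in VC 1 to 3 and 134, 134 and 155 in VHL-KO 1 to 3. VHL-KO 3 was the highest of its group and remained under every VC library. ADAR fell by 0.64 ± 0.09 (SE) on the log2 scale (edgeR, adjusted p = 1.81e-06), and by 0.50 with GC and length offsets. DHX58, EIF2AK2, TRAF3, TRIM25 and ADAR each passed the test in the same direction under all 15 alternatives.

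**Figure D2:**
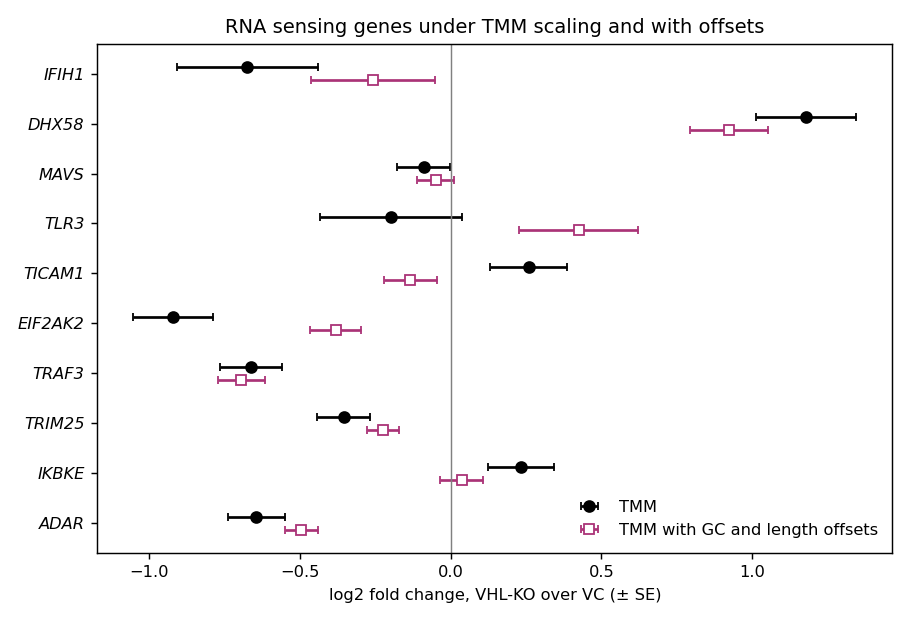
Log2 fold change of each RNA sensing gene, VHL-KO over VC, with its SE (edgeR); filled circles are TMM scaling and open squares TMM with GC and length offsets. DHX58 stays at or above 0.92, EIF2AK2 moves from -0.92 to -0.38, and the signs of TLR3 and TICAM1 turn.

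GC content bears on these values. Across the 17355 tested genes with a GC content, log2 fold change and GC content of the canonical transcript had a Spearman rho of 0.321, a description across genes that are not independent. In genes of 35 to 40% GC the median log2 fold change was -0.47 with 51.8% called lower, and in genes of 60 to 65% GC it was 0.46 with 51.0% called higher. The members' GC contents ran from 37.6% for TLR3 and 38.5% for EIF2AK2 to 63.0% for TICAM1. The VC libraries also differed among themselves along GC: the deviation from the group mean had a rho with GC of 0.763 in VC 2 and -0.774 in VC 3, against -0.06 in VC 1 and between -0.102 and 0.045 in the VHL-KO libraries. VC 3 was the highest VC library for the 3 members of lowest GC content, TLR3, EIF2AK2 and IFIH1, and the lowest for TICAM1, IKBKE and DHX58, the 3 of highest GC content. The offsets take out any trend with GC and length, whatever its origin, and the origin was not tested.

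**Figure D3:**
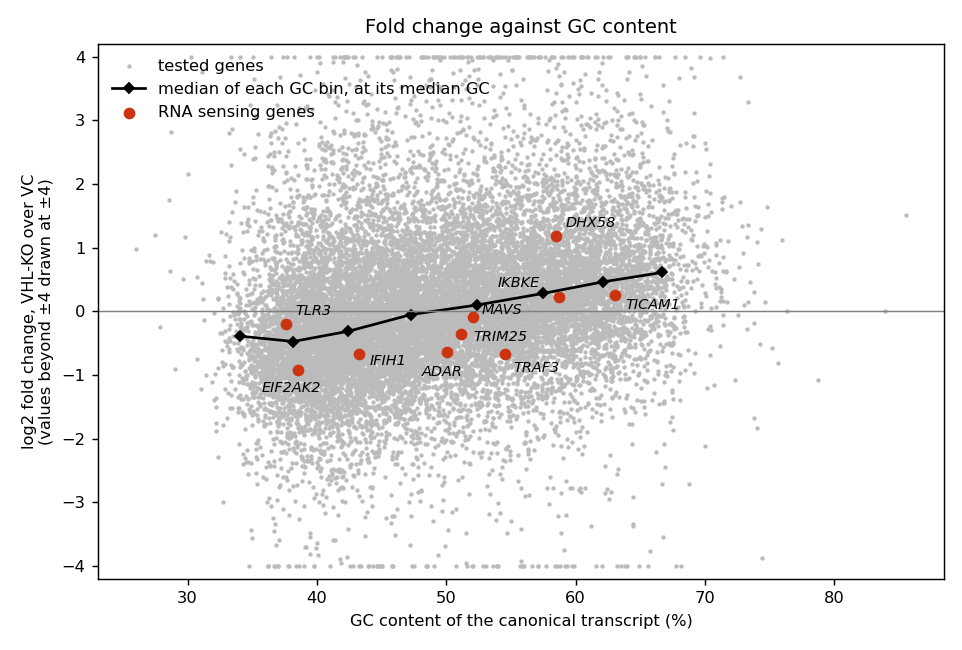
Log2 fold change, VHL-KO over VC, against GC content of the canonical transcript for the tested genes (grey; values beyond ±4 are drawn at ±4), with the median of each GC bin (black) and the RNA sensing genes (red). The bin medians climb from -0.47 at 35 to 40% GC to 0.61 above 65%, and DHX58 lies above that line while ADAR and TRAF3 lie under it.

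Levels were compared between genes per length, as TMM-scaled CPM per kb of exon. The length was that of all annotated exons of a gene together, whether or not these cells use them. The order rests on that choice and carries any trend with GC content, so close ranks are uncertain. In VC the order was ADAR (17.98 ± 1.17, SD, n = 3), TRIM25 (16.0), IKBKE (15.1), MAVS (13.1), TICAM1 (8.89), EIF2AK2 (4.59), TRAF3 (3.96), DHX58 (1.33), IFIH1 (0.757) and TLR3 (0.533). Neighbours from ADAR down to MAVS overlapped, as did EIF2AK2 with TRAF3 and IFIH1 with TLR3, whereas MAVS and TICAM1, TICAM1 and EIF2AK2, TRAF3 and DHX58, and DHX58 and IFIH1 were separate. In VHL-KO, IKBKE led at 17.7, separate from TRIM25 (12.5), which overlapped MAVS (12.3), as MAVS did ADAR (11.5) and ADAR did TICAM1 (10.6). DHX58 followed at 3.00, separate from both TICAM1 above and TRAF3 (2.50) under it, and EIF2AK2 (2.43) overlapped TRAF3. IFIH1 (0.478) and TLR3 (0.466) came last, separate from EIF2AK2, and overlapped. The adaptors were thus measured at higher levels than the receptors they serve. The TICAM1 to TLR3 ratio of reads per exonic base was 21.8, 25.2 and 9.50 in VC 1 to 3 and 21.3 to 24.98 in VHL-KO. VC 3 alone was low, and this ratio also carries any trend with GC content.

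**Figure D4:**
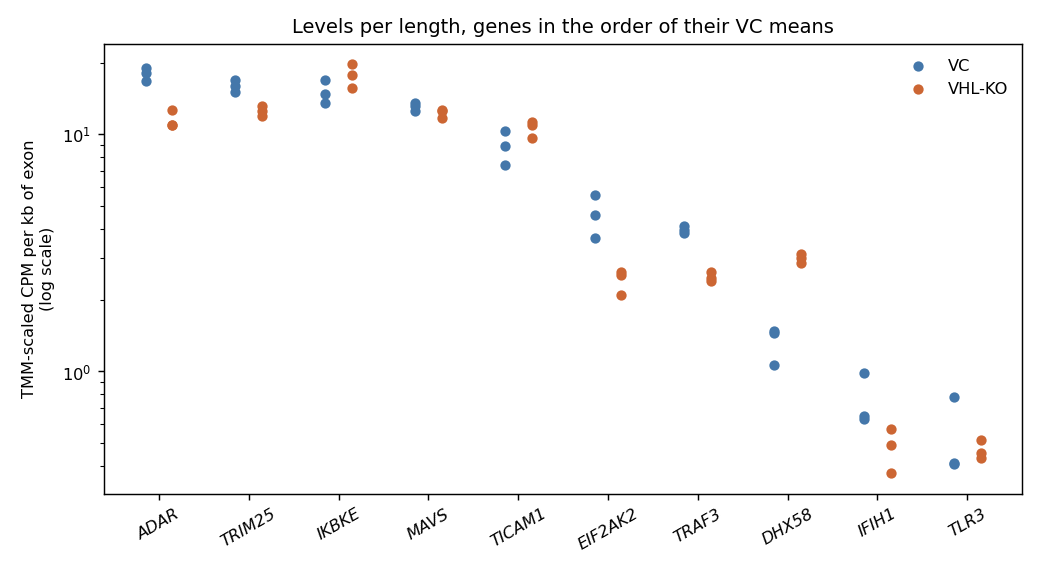
Level per length (TMM-scaled CPM per kb of exon, log axis) of the RNA sensing genes, each point a library, VC left and VHL-KO right of each gene's mark, in the order of the VC means. The receptors IFIH1 and TLR3 lie under 1 in every library, and DHX58 moves from 1.33 to 3.00.

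The other genes of the pathway came from 4 lists with 79 genes in all, none of them a member, of which 74 were tested. Of these, 18 were called higher and 32 lower, beside 28.5% and 31.2% of all tested genes, with a median log2 fold change of -0.13. With GC and length offsets 28 were called higher and 30 lower, beside 29.3% and 30.9% of all tested genes. The counts of each of the 4 lists are to be read against these same shares, and nothing particular to a list can be read from them.

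Of 24 partners of RIG-I-like receptor and MAVS signalling, 6 were called higher and 11 lower, with a median of -0.21 (9 and 8 with GC and length offsets). DDX58, which encodes the receptor RIG-I, had 0.615, 0.673 and 0.843 CPM in VC 1 to 3 and 1.24, 0.324 and 0.657 in VHL-KO 1 to 3. VHL-KO held both its highest and its lowest library, and DDX58 did not pass the test (log2 fold change 0.08 ± 0.45, SE; edgeR, adjusted p = 0.885), nor did it with the offsets, at 0.65 (adjusted p = 0.223, in a range of 0.223 to 0.989). Other annotated genes on the same strand share 43.2% of the DDX58 exon bases, so that its level is uncertain. IRF7, a transcription factor of interferon genes, had 10.2, 12.2 and 9.35 CPM in VC and 28.9, 29.1 and 31.3 in VHL-KO, and rose by 1.49 ± 0.13 (SE) on the log2 scale (0.89 with the offsets). TBKBP1, an adaptor of TBK1, rose by 1.39 ± 0.11 (SE), and TRADD, a death domain adaptor, by 1.04 ± 0.10 (SE), the latter by 0.39 with the offsets. The RNA helicases DHX15, DDX3X and DHX9 had the largest called falls of this list. DHX15 fell by 1.67 ± 0.12 (SE), DDX3X by 1.47 ± 0.12 (SE; it fell by 0.93 with the offsets) and DHX9 by 1.26 ± 0.09 (SE). DHX9, at 319 to 365 CPM in VC and 131 to 153 in VHL-KO, was the most abundant of the list. TBK1 and IRF3, the kinase beside IKBKE and its main substrate, had log2 fold changes of -0.21 and 0.16 and did not pass the test with TMM. With the offsets both turned sign and passed it, TBK1 at 0.38 (edgeR, adjusted p = 0.00195, in a range of 0.000977 to 0.658) and IRF3 at -0.37 (adjusted p = 1.35e-05, in a range of 6.84e-06 to 0.806). Without VC 2 they passed it in the directions of TMM, TBK1 at -0.36 and IRF3 at 0.26, so that no direction can be given for either. Of the IRF3 exon bases, 19.3% are also exonic on the opposite strand.

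Of 16 brakes on this signalling, 3 were called higher and 5 lower, with a median of -0.10 (7 and 6 with the offsets). TNIP1, a ubiquitin-binding partner of TNFAIP3, rose by 0.90 ± 0.09 (SE), TKFC by 0.57 ± 0.11 (SE) and OTUD5, a deubiquitinase, by 0.51 ± 0.10 (SE; 0.26 with the offsets). PLK1 fell by 2.01 ± 0.10 (SE); it is best known as a mitotic kinase, and its mean was 176 CPM in VC and 43.6 in VHL-KO. MARCHF5, a ubiquitin ligase of mitochondria, fell by 1.30 ± 0.14 (SE), and ITCH, which marks MAVS for degradation, fell by 0.91 ± 0.13 (SE). With the offsets MARCHF5 fell by 0.71 and ITCH fell by 0.36. Other genes share 23.9% of the ITCH exon bases on the same strand, and on the opposite strand 17.5% of those of TKFC and 12.8% of those of PLK1.

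Of 14 endosomal Toll-like receptor genes, 10 were tested, 5 of them called higher and 2 lower, with a median of 0.29 (6 and 2 with the offsets). TLR7, TLR8, TLR9 and RIPK3 were at 0 in every library, where 3 counts would be 0.0790 to 0.141 CPM, a floor for counting error only. Other genes on the same strand share 99.7% of the exon bases of TLR9 and 11.1% of those of RIPK3, and reads in shared exons can be left uncounted, so that the 0 of TLR9 says little of its level. SARM1, an inhibitor of TICAM1, rose by 1.89 ± 0.24 (SE) from a mean of 1.24 CPM to 4.56, but 41.3% of its exon bases are also exonic on the opposite strand and the counts are uncertain. CTSB, a lysosomal protease, had 555 to 660 CPM in VC and 1475 to 1513 in VHL-KO. CNPY3, a chaperone of Toll-like receptors, rose by 0.85 ± 0.10 (SE; 0.34 with the offsets). MYD88 and IRAK1, of the signalling route that TLR3 does not use, fell by 0.47 ± 0.12 (SE) and 0.39 ± 0.09 (SE); with the offsets IRAK1 fell by 0.70.

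Of 25 other genes that bind or respond to double-stranded RNA, 24 were tested, 4 called higher and 14 lower, with a median of -0.46 (6 and 14 with the offsets). The genes of the oligoadenylate synthetase family moved apart; OAS1, OAS2 and OAS3 make the activator of RNase L, while OASL lacks that activity. OAS3 had 16.2, 19.8 and 19.1 CPM in VC and 5.65, 5.33 and 8.96 in VHL-KO, and fell by 1.47 ± 0.17 (SE). OAS1 had 7.12, 8.89 and 8.06 CPM in VC and 13.9, 12.9 and 14.0 in VHL-KO, and rose by 0.76 ± 0.15 (SE). OASL rose by 0.81 ± 0.16 (SE), and OAS2, at a log2 fold change of 0.09, did not pass the test and was -0.19 without VHL-KO 2. OAS1, OASL and OAS3 passed the test in these directions under all 15 alternatives. SAMHD1, a nucleotide hydrolase, fell by 1.40 ± 0.11 (SE), and PNPT1, which degrades RNA in mitochondria, fell by 1.17 ± 0.14 (SE; it fell by 0.60 with the offsets). Downstream of EIF2AK2, its substrate EIF2S1 fell by 1.02 ± 0.12 (SE; it fell by 0.41 with the offsets). PPP1R15A and PPP1R15B both direct dephosphorylation of that substrate, and they moved apart. PPP1R15A rose by 0.89 ± 0.10 (SE; 0.58 with the offsets), and PPP1R15B fell by 1.17 ± 0.14 (SE; it fell by 0.77 with the offsets). ZBP1 was at 0 in every library.

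**Figure D5:**
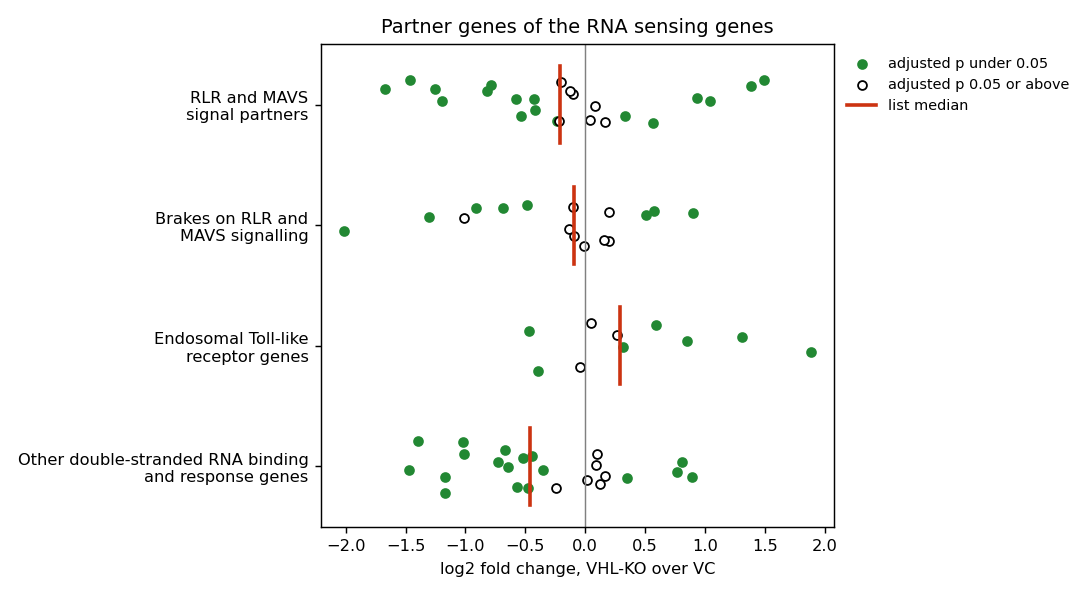
Log2 fold change, VHL-KO over VC, of the 74 tested partner genes in 4 lists; filled points have an adjusted p under 0.05 (edgeR), open points do not, and red lines are list medians. The median lies at -0.46 for the other RNA binding genes and at 0.29 for the endosomal genes.

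Most type I and III interferon genes were almost without reads, and whether RNA sensing drives any of them here was not tested. Of 20 type I and III interferon genes, 16 were at 0 in every library, IFNA4 and IFNL1 had 2 reads in 1 library each and IFNL3 had 1 read. The counts kept only reads at a single location, so reads that fit several of these genes can be left uncounted. A 0 for a gene with close relatives in the list is therefore uncertain. IFNE, the interferon with reads in each library, had 0.381, 0.539 and 0.580 CPM in VC and 1.20, 0.556 and 1.69 in VHL-KO. VHL-KO 2 lay among the VC libraries, and IFNE rose by 1.19 ± 0.43 (SE; edgeR, adjusted p = 0.0209). IFNE did not pass the test without VHL-KO 3 (edgeR, adjusted p = 0.138), VC 1 (0.0784) or VHL-KO 1 (0.05), nor with library size alone (0.0547), in a range of 0.00291 to 0.138.

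Of 18 interferon-induced genes, 15 were tested, with 3 called higher, 4 lower and a median of 0.01, beside 28.5% and 31.2% of all tested genes (6 and 2 with the offsets, beside 29.3% and 30.9%). IRF9, part of the factor that binds the ISRE, rose by 1.42 ± 0.45 (SE) from at most 0.469 CPM in VC, ISG20 by 0.92 ± 0.28 (SE) and IFI6 by 0.91 ± 0.17 (SE; 0.37 with the offsets). IFI44L fell by 1.39 ± 0.29 (SE), IFIT1 by 0.83 ± 0.20 (SE) and IFIT5 by 0.63 ± 0.19 (SE). Other genes on the same strand share 23.9% of the exon bases of IRF9 and 23.1% of those of IFI6. With the offsets IFI44L fell by 0.79, while IFIT1 and IFIT5 did not pass the test (edgeR, adjusted p = 0.0982 and 0.986, in ranges from 4.42e-05 and 0.000895 up to 0.0982 and 0.993), nor did IFIT5 without VC 3 (adjusted p = 0.0654).

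With library size alone, the median of all tested genes was -0.20 and 35.8% of called genes were higher, beside 47.7% with TMM; the members' median was then -0.47, which is -0.27 relative to all genes, and MAVS joined the genes called lower. With upper quartile factors the median of all genes was 0.10 and that of the members -0.16, or -0.26 relative to all genes; with TMM the members stood at -0.27 relative to all genes. These scalings shift all genes nearly alike. With GC and length offsets the members' median was -0.18, also relative to all genes, and without VC 1 it was -0.38 relative to all genes.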

How the data were processed

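Total RNA of Caki-1 cells was sequenced on an Illumina NovaSeq. The authors trimmed reads with Trim Galore and Cutadapt, aligned them with STAR to GRCh38.p13, kept reads at a single location with SAMtools and deposited raw counts per gene from HTSeq; versions, strandedness and annotation are not given in the sources used here. From these counts, genes that reached 10 reads in some library were tested with edgeR 4.0.16 (TMM, glmQLFit, glmQLFTest) in R 4.3.3, with Benjamini-Hochberg adjustment over all tested genes and a threshold of 0.05, after tests on simulated data. GC content, exon length and coordinates came from GENCODE (GRCh38) and promoters from RefSeq. GC and length offsets were natural splines with 5 degrees of freedom per library. Genes named were the members, VHL, hypoxia-inducible factor targets, the 3 largest called changes per direction of each partner and interferon-induced list with a mean of at least 1 CPM in either group, interferon genes with any read and the most abundant marker of each list; other partners were named after their values were seen. The members and lists were chosen with earlier results of these data known. Alternatives were other scalings, DESeq2 1.42.0, other filters, leaving out each library, a replicate block and the offsets. Libraries within each group were compared pairwise, and their chi-square per degree of freedom was 6.43 or more, above sampling noise.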

Additional observations from a re-analysis of the deposited data

How the results depend on the processing

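Of 150 values of the 10 members under 15 alternatives, 131 kept their direction and side of the threshold. The count of members called higher was 1 with TMM (28.5% of all tested genes), 2 with relative log expression factors (29.4%), 3 with upper quartile factors (32.8%), 3 where a gene needed 10 reads in each library (32.6%), and 1 to 3 without a library (25.5 to 28.8%); the cause was not tested. The members called lower ranged from 4 to 6. They were 5 with TMM (31.2% of all tested genes), 6 with library size alone (38.7%) and 4 with GC and length offsets (30.9%). Over the 15 alternatives the share of all tested genes called lower ran from 19.7 to 38.7%, lowest where a gene needed 1 read in any library. Partner genes called higher were 28 with GC and length offsets (29.3% of all tested genes), and also 28 with the offsets and the replicate block together (29%). They were 18 with the block alone (27.9%). MAVS turned to 0.021 with upper quartile factors. TLR3 turned to 0.42 with GC and length offsets (0.45 with the block) and ranged from -0.35 to 0.21 without a library, the highest without VC 3. TICAM1 turned to -0.13 with the offsets (-0.14 with the block). DDX58 was -0.12 with library size alone, -0.022 with the replicate block, 0.65 with the offsets and -0.53 to 0.43 without a library. OAS2 was -0.101 with library size alone and -0.185 to 0.308 without a library. Scaled by library size alone IRF3 was -0.028, and the offsets gave -0.371 with or without the block, and TBK1 was 0.382 with the offsets (0.386 with the block). IFIT5 was 0.002 with the block and offsets. The causes were not tested.

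The replicate numbers gave correlations of 0.148, -0.08 and 0.062 between same-numbered libraries, taken on deviations from the group means. With 3 libraries per group and VC deviations that follow GC content, these values cannot decide whether a shared number marks a shared culture or day. With the replicate block 10284 genes were called, against 10394 without it. IFIH1, TLR3 and DDX58 had 7 to 222 reads per library, which limits the precision of their fold changes.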
